A study of Mus musculus with 16 samples.

Results

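The small noncoding RNAs of 8 genes, which work as folded RNA, were followed from total RNA to ribosome-bound RNA of mouse dorsal root ganglia. They are Rn7s1 and Rn7s2 (7SL RNA), Rn7sk (7SK RNA), Rny1 and Rny3 (Y RNAs), Rmrp (RNA of RNase MRP), Rpph1 (RNA of RNase P) and Terc (telomerase RNA). Members were chosen by gene symbol, and 8 of the 53379 gene IDs in the files were members. All 8 had a value above 0 in all 16 libraries. Terc goes against the description of this group as abundant, since its deposited value never exceeded 0.431 TPM, a unit that gives reads per length as a share of the library total.

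The mice were Nav1.8Cre/Rosa26fsTRAP on a C57BL/6J background, naive littermates of either sex between 8 and 12 weeks of age. In these animals Cre under the Scn10a (Nav1.8) promoter switches on an EGFP-tagged ribosomal protein L10a, so the tag marks ribosomes of neurons that use or once used this promoter, mostly nociceptors. Every group carried both alleles, and no group lacked the tag. Each of 8 pools (4 female, 4 male, 3 mice each) gave 1 library of total ganglion RNA (IN) and 1 of RNA pulled down with anti-GFP antibodies (IP), and ribosomal RNA was depleted from both. The pulldown was checked on Scn10a itself: its scaled TPM was 108 to 143 in IN and 282 to 444 in IP, a log2 change of 1.60 ± 0.08 (SE, n = 8 pools, limma adjusted p = 7.04e-08).

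RNA polymerase III makes all of the RNAs followed here except Terc, which RNA polymerase II makes, and none of them is translated. 7SL RNA is the scaffold of the signal recognition particle (SRP), which binds ribosomes that carry a signal peptide and brings them to the endoplasmic reticulum. 7SK RNA is nuclear and holds the kinase complex P-TEFb inactive together with Hexim proteins. Y RNAs bind the Ro60 protein (gene Trove2) and the La protein (gene Ssb). RNase P trims the leader of transfer RNA precursors, RNase MRP cuts ribosomal RNA precursors, and the pair share most of their proteins. Terc is the template RNA of telomerase.

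Sequences and positions are from GENCODE M21 transcripts on GRCm38, and the sequences are written 5′ to 3′ with T for U. Shorter entries of the files lie inside the 7SL genes. In Rn7s1 they are AC099934.2 at positions 143 to 212 and AC099934.1 at positions 224 to 300, counted from the 5′ end.
Rn7s1 lies at chr12:69159295-69159594 on the plus strand. Rn7s2 lies 201.6 kb away at chr12:69361182-69361481 on the minus strand. Their 300 bases are the same at all 300 positions, so no read inside the gene can be assigned to either by its sequence. Rn7s2 contains a pair of short entries in the same places, AC157822.2 and AC157822.1. M21 annotates all 4 short entries as miRNA, and they are 70 to 80 bases long.

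The Y RNAs are shown because their ratios to Rmrp and Rpph1 fell from IN to IP. Capitals mark the runs of at least 8 bases that both contain.
Rny1: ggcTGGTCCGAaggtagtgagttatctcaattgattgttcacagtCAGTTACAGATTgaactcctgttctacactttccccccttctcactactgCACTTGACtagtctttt
Rny3: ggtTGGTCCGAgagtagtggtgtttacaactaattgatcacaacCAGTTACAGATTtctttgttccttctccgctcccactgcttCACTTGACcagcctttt
The shared runs are 8, 12 and 8 bases long, and the outer pair sit near the ends, which fold together into the stem that Ro60 binds. Rny1 lies at chr6:47788069-47788180 on the minus strand and Rny3 at chr6:47781624-47781725 on the plus strand, and each is a single-exon gene. The Y RNAs contain 43.8% and 45.1% G or C, and the other 6 members 58.0% to 67.1%.

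The first 100 bases of the 331 of 7SK RNA (chr9:78175534-78175633) are shown with the motif GATC in capitals (GAUC in the RNA), which in this hairpin forms the Hexim binding site.
Rn7sk: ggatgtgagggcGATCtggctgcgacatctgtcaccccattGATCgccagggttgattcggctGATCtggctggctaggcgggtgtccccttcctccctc
GATC reads the same on both strands. It occurs 3 times, first at position 13 and last at position 64. Of 129282 M21 transcripts of at least 331 bases, 61.9% hold it at least once in their first 331 bases and 7.99% hold it as often. Rn7sk lies at chr9:78175303-78175633 on the minus strand. The remaining members lie at chr4:43492788-43493058 (Rmrp), chr14:50807449-50807767 (Rpph1) and chr3:96414437-96414859 (Terc), all on the minus strand. The coordinates of all 8 members in the files were those of M21.

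Values were compared between libraries as scaled TPM, the deposited TPM divided by a library factor (median of ratios over the tested genes) of 0.375 to 0.532 in IN and 1.65 to 2.69 in IP. Changes are log2(scaled TPM + 1) with the pool as a block in limma, and p-values were adjusted by Benjamini-Hochberg over all tested genes with a threshold of 0.05. Genes whose mean deposited TPM was below 1 in both fractions were not tested, which left 7 of the 8 members and took out Terc.

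All 7 tested members fell from IN to IP, in 8 of 8 pools each, except under quantile normalization. That scaling kept the call for only 4 of them and turned Rn7s1 to a log2 change of 0.22 (limma adjusted p = 0.608). It gives each rank the same value in every library. By rank among all entries of a library Rn7s1 was between 4 and 8 in IN and between 5 and 9 in IP. A fall in the level of such an entry can show little under that scaling. Over all 16099 genes tested, 38.9% were called lower in IP. The median log2 change was -4.22 over the 7 members and 0.02 over all genes. The smallest change was that of Rmrp, at -3.45 ± 0.22 (SE, adjusted p = 2.46e-07), and the largest that of Rny1, at -4.93 ± 0.27 (adjusted p = 1.01e-07). Whole ganglia hold glia, vessels and connective tissue beside neurons. In such bulk samples, fewer cells of a type and less RNA per cell cannot be told apart. IP differs from IN both in the cells that gave the RNA and in its binding to tagged ribosomes. This design cannot tell these apart either, and the part of each was not tested.

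**Figure D1:**
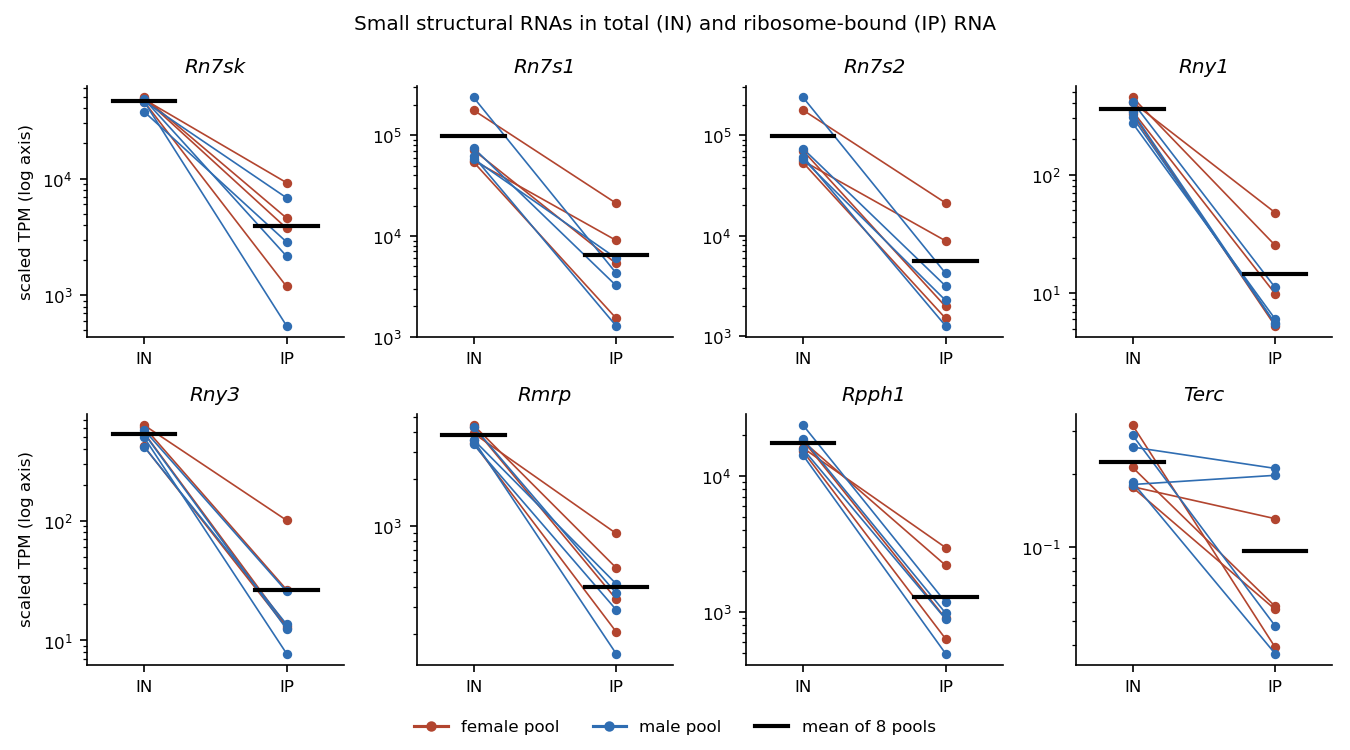
Scaled TPM (log axis, a separate scale in each panel) of the 8 small RNAs in total RNA (IN) and ribosome-bound RNA (IP), with 1 line for each of 8 pools and black bars for means. In this scaling IN and IP values do not overlap for the 7 tested members, while those of Terc do. In deposited TPM the ranges of Rn7s1, Rn7s2 and Rny3 overlap as well. The share of all genes without overlap is not given here. Under quantile normalization, which sets values by rank, Rn7s1 is not lower in IP.

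Rn7sk had a scaled TPM of 48932, 47682, 45542 and 49515 in IN of female pools 1 to 4 and of 37402, 46027, 47915 and 45626 in IN of male pools 1 to 4. In IP the values were 3754, 9218, 1191 and 4588 in the female pools and 2864, 6838, 2164 and 549 in the male pools. IN libraries thus lay close together (46080 ± 3811, SD, n = 8), whereas IP libraries spanned 16.8-fold (3896 ± 2929) without reaching the IN range. The log2 change was -4.01 ± 0.43 (SE, limma adjusted p = 9.27e-06), a 16.1-fold lower value in IP. Female pool 2 was the highest IP library and male pool 4 the lowest. In deposited TPM, with no scaling, Rn7sk ran from 17972 to 26348 in IN and from 1474 to 15182 in IP. By rank among all entries of a library it was between 8 and 10 in IN and between 6 and 49 in IP.

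Rny1 had a scaled TPM of 344, 410, 326 and 449 in IN of the female pools and of 273, 411, 337 and 307 in IN of the male pools. In IP it had 9.93, 48.0, 5.31 and 25.4 in the female pools and 6.07, 11.2, 5.56 and 5.52 in the male pools. Female pools 2 and 4 were the highest IP libraries, and all IP values lay below all IN values. Its rank among all entries of a library went from between 69 and 113 in IN to between 1426 and 8735 in IP. Rny3 had a scaled TPM of 417, 628, 541 and 608 in female and of 415, 574, 536 and 497 in male IN. In IP it had 12.8, 101, 13.2 and 26.6 in the female pools and 13.7, 25.8, 12.5 and 7.79 in the male pools. Female pool 2 stood above the other IP libraries. The log2 change of Rny3 was -4.71 ± 0.29 (SE, limma adjusted p = 1.71e-07, n = 8 pools).

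The RNAs of the related ribozymes fell in the same direction. Rmrp had a scaled TPM of 4303, 3932, 3391 and 4437 in female and of 3334, 3575, 4337 and 3547 in male IN. In IP it had 337, 891, 207 and 535 in the female pools and 287, 422, 367 and 150 in the male pools. Rpph1 had a scaled TPM of 18288, 16098, 15211 and 18033 in female and of 15812, 23718, 18752 and 14220 in male IN. In IP it had 897, 2981, 635 and 2207 in the female pools and 888, 1182, 982 and 495 in the male pools. For both, female pool 2 was the highest and male pool 4 the lowest IP library. Rpph1 changed by -4.00 ± 0.27 on the log2 scale (SE, limma adjusted p = 3.17e-07, n = 8 pools), 15.9-fold lower in IP.

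By the listed values the 7SL genes were the highest of the members in IN. In IP Rn7sk exceeded both of them in female pool 2 (15182 TPM against 14882 for Rn7s1 and 14600 for Rn7s2) and in male pool 2 (13554 against 8487 and 8356). The files divide 7SL reads unevenly between entries. In 6 of the 8 IN libraries Rn7s1 had a deposited TPM of 26930 to 28731, and the short entry at its 3′ end, AC099934.1, had 152156 to 170046. In IN of female pool 4 and male pool 2 Rn7s1 had 94388 and 99732, and AC099934.1 had 0.260 and 0.115. Rn7s2 and its short entry AC157822.1 showed the same division in the same libraries, with 94514 and 99799 for Rn7s2 and 1.88 and 3.98 for the short entry. Rn7s1 and Rn7s2 were thus high exactly where the short 3′ entries were near 0.

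In IP the short 3′ entries of both loci were near 0 in female pool 4, where Rn7s1 had a deposited TPM of 40088 and Rn7s2 of 40103. In female pool 1 and male pool 1 only AC099934.1 was near 0, at 1.42 and 0.449. In those 2 libraries Rn7s1 had 13248 and 14931, against 4886 and 5612 for Rn7s2. In the other 5 IP libraries the ratio of Rn7s1 to Rn7s2 was 1.01 to 1.02. The rule by which reads fitting several entries were assigned is not given here.

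The reads of a locus were therefore put together by weighting the TPM of the gene and of its short entries by their lengths and dividing by 300 bases, an alternative chosen after seeing the data. This length-weighted value was the same at both loci: the ratio of Rn7s1 to Rn7s2 was between 0.998 and 0.99999 in all 16 libraries, against 0.999 to 2.71 for the listed values. In scaled units it was 241140 ± 47094 in IN (SD, n = 8; lowest 194486, median 233855, highest 331338) and 14730 ± 11069 in IP (lowest 4748, median 10394, highest 33431). The coefficient of variation over the IN libraries was 19.5% for the locus and 70.1% for Rn7s1 as listed. The log2 change was -4.35 for both loci, against -4.22 ± 0.43 for Rn7s1 (SE, limma adjusted p = 5.97e-06) and -4.58 ± 0.40 for Rn7s2 (adjusted p = 2.13e-06) as listed. As no read inside these genes can be assigned to either by its sequence, the equal values are not separate measurements. Female pool 2 had the highest scaled locus value in IP, where by the listed values it had been female pool 4. With length-weighted loci Rn7sk was below 7SL in every library, female pool 2 and male pool 2 included. The ratio of Rn7sk to the Rn7s1 locus was 0.139 to 0.241 in IN and 0.116 to 0.501 in IP.

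**Figure D2:**
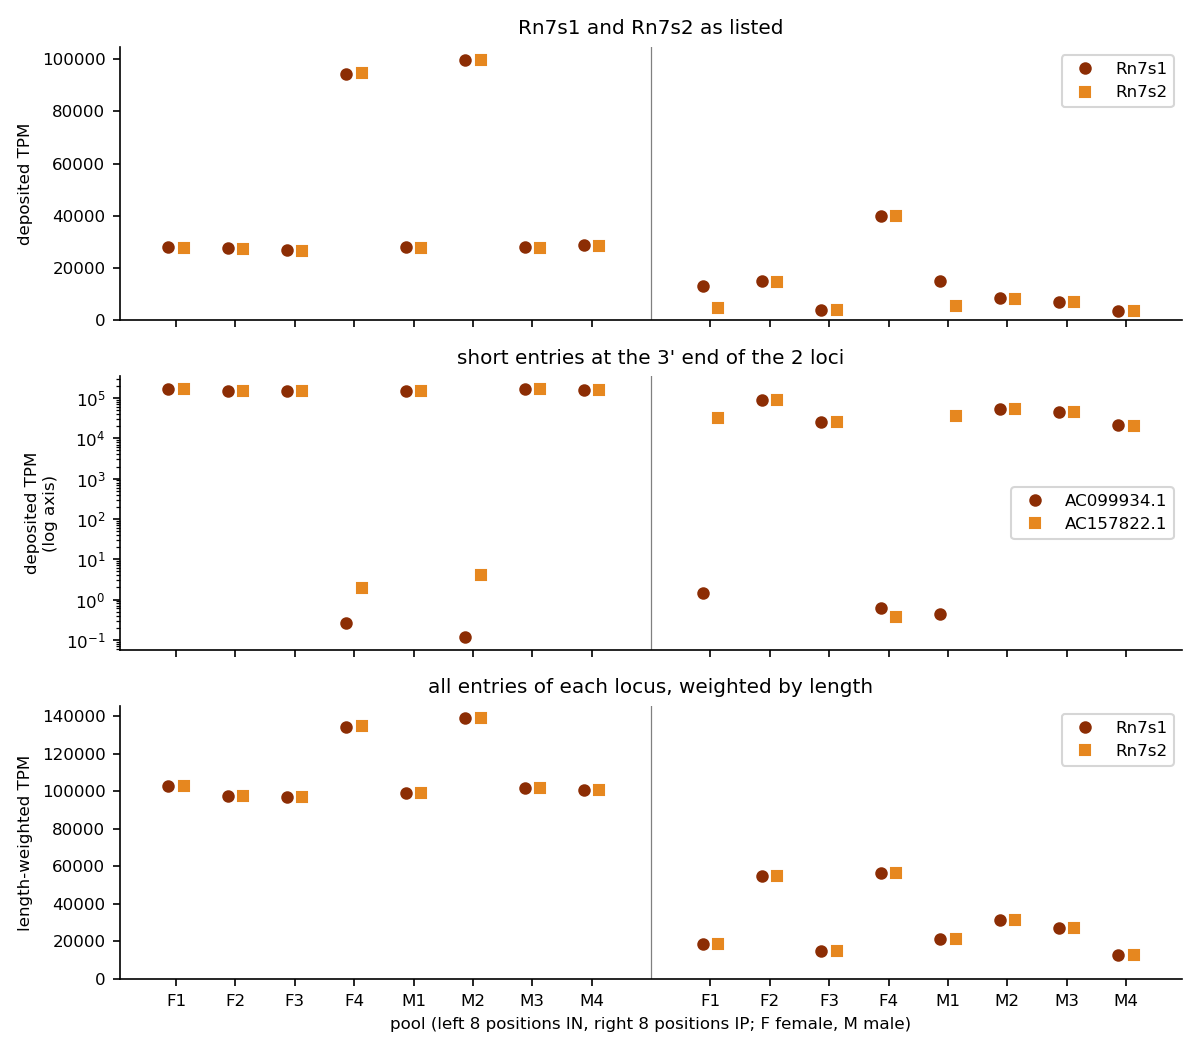
Deposited TPM of Rn7s1 and Rn7s2 (upper panel), of the short 3′ entries inside them (middle panel, log axis) and of all entries of each locus weighted by length (lower panel), with 1 position for each library. Rn7s1 and Rn7s2 are high where the short entries are near 0, in IN of female pool 4 and male pool 2 and in IP of female pool 4, and the loci coincide in the lower panel.

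Terc, the RNA template of telomerase, was near the lower limit of the files. Its deposited TPM was 0.0677 to 0.157 in IN and 0.0913 to 0.431 in IP, with overlapping ranges, and its scaled TPM was 0.176 to 0.316 in IN against 0.0368 to 0.210 in IP. The mean deposited TPM was under 1 in each fraction, so it was not tested. With no filter on low values its log2 change was -0.14 in limma (adjusted p = 0.0175), on a scale that adds 1 to a value below 1 and so understates any fold. By scaled TPM it was lower in IP in 7 of 8 pools. By deposited TPM it was lower in 2 of 8, a direction that turned with the scaling.

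In IN the order of the scaled levels, per length, was 7SL (length-weighted), Rn7sk, Rpph1, Rmrp, Rny3, Rny1 and Terc. The ranges of neighbours did not overlap there, with the exception of Rny3 (415 to 628) and Rny1 (273 to 449). In IP the order of the means was the same, and the ranges of 7SL and Rn7sk, of Rn7sk and Rpph1, of Rpph1 and Rmrp, and of Rny3 and Rny1 overlapped. Within single libraries the order held more tightly. Rny1 was below Rny3 in all 16 libraries, with ratios of 0.603 to 0.825 in IN and 0.401 to 0.957 in IP. Rpph1 was below Rn7sk in all 16, with Rn7sk to Rpph1 ratios of at least 1.94 in IN and 1.11 in IP.

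Together the members took between 8.25% and 23.1% of the deposited TPM total in IN (12.1% ± 6.67, SD, n = 8) and 1.01% to 9.42% in IP (3.57% ± 2.69). The median in IN was 8.65%, with female pool 4 (22.8%) and male pool 2 (23.1%) far above it. In IN of these pools the short 3′ entries of both 7SL loci were near 0. With the overlapping entries added, the share of the members came to 56.8% to 67.8% (IN) and 8.45% to 37.2% (IP). Nearly all of that was 7SL. Rn7sk alone took 1.797% to 2.63% of the total in IN and 0.147% to 1.52% in IP, Rpph1 0.663% to 0.995% and 0.133% to 0.491%. The Y RNAs together were the smallest shares after Terc, with 0.0126% to 0.0239% for Rny1 in IN and 0.00122% to 0.00790% in IP. For comparison, the share of nuclear protein-coding genes was 8.41% to 11.7% in IN and 39.2% to 69.5% in IP. TPM gives short entries much weight per read, and the number of reads behind each value is unknown.

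**Figure D3:**
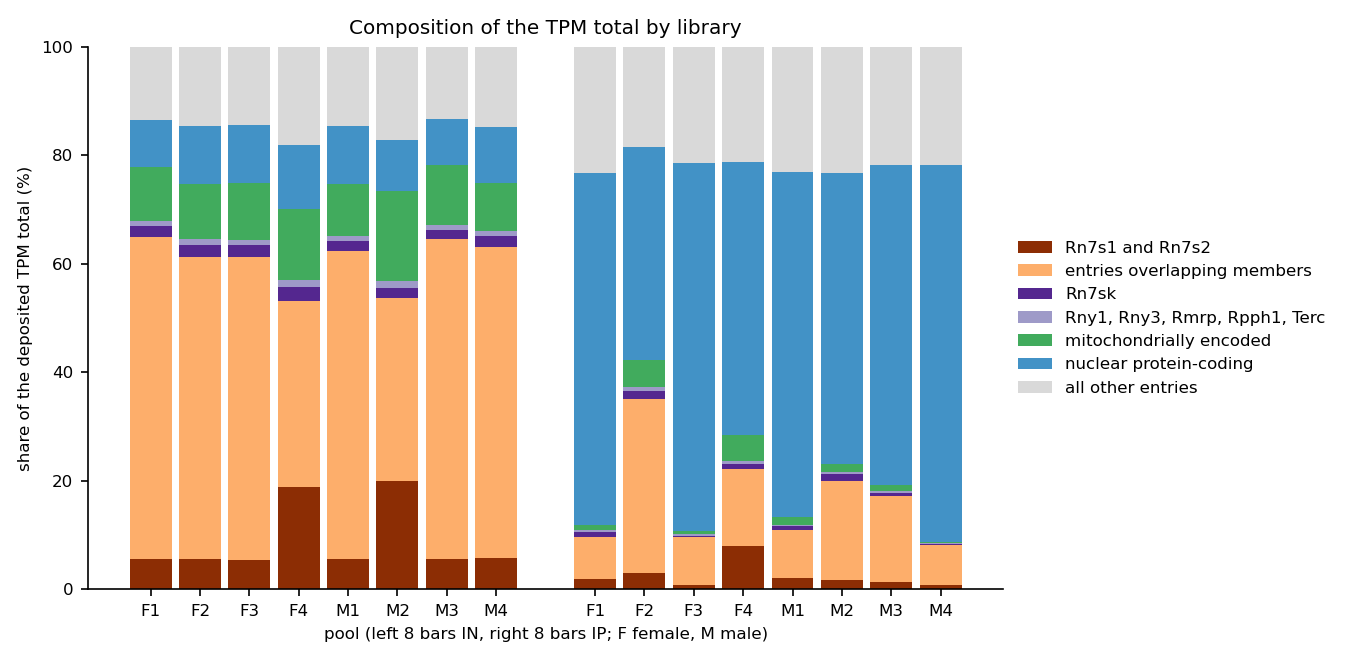
Share of the deposited TPM total (percent) in each library, IN on the left and IP on the right, divided into 7SL genes, entries overlapping members, Rn7sk, other members, mitochondrially encoded RNA, nuclear protein-coding genes and the rest. Small RNAs with their overlapping entries hold 56.8% to 67.8% of IN and 8.45% to 37.2% of IP, with female pool 2 the highest IP library.

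The members were also compared with each other inside a library, where no scaling between libraries enters. Over 28 pairs, an exact sign-flip permutation test on the 8 pools (two-sided, smallest possible p = 0.0078125) with Benjamini-Hochberg adjustment called 16 ratios as changed between IN and IP. Rn7s1 and Rn7s2, which share their sequence, enter these pairs as separate members, and the 16 include all ratios to Terc. The ratio of Rny1 to Rmrp had a median of 0.0912 in IN (0.0777 to 0.115) and 0.0280 in IP (0.0151 to 0.0538). The fractions did not overlap, the ratio fell in 8 of 8 pools, and its log2 change was -1.63 ± 0.52 (SD, n = 8, exact permutation, adjusted p = 0.015625). The ratio of Rny1 to Rpph1 went from a median of 0.0201 (0.0172 to 0.0255) to 0.0102 (0.00566 to 0.0161), also without overlap and in 8 of 8 pools, a log2 change of -1.09 ± 0.34 (exact permutation, adjusted p = 0.015625).

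Rny3 shifted against the ribozymes too. Its ratio to Rmrp went from a median of 0.139 to 0.0508 and its ratio to Rpph1 from 0.0310 to 0.0156, each lower in 8 of 8 pools (exact permutation, adjusted p = 0.015625) and with some overlap between the fractions. By these ratios the Y RNAs fell more, from IN to IP, than the ribozyme RNAs of the same libraries. Rny1 (112 bases) and Rny3 (102) are also the shortest members, against 271 bases for Rmrp and 319 for Rpph1. The part of length in these ratios was not tested. Between the Y RNAs the ratio of Rny1 to Rny3 was 0.654 in IN and 0.460 in IP and did not pass the test (adjusted p = 0.109375, exact permutation), with 6 of 8 pools lower.

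Rmrp lost less than Rpph1. The ratio of Rmrp to Rpph1 had a median of 0.233 in IN and 0.325 in IP, higher in 7 of 8 pools (exact permutation, adjusted p = 0.0273). The exception was female pool 4, at 0.246 in IN and 0.242 in IP. Rn7sk rose against Rny1 from a median ratio of 138 to 291 in 7 of 8 pools (exact permutation, adjusted p = 0.0273), and its ratio to Rpph1 was 2.71 in IN and 2.61 in IP with 4 pools in each direction (adjusted p = 0.992188). With 7 pools the smallest exact p is 0.015625, and the calls at 0.0273 were lost on leaving out single pools, with adjusted p of up to 0.0547.

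For 7SL the ratios depended on the entries used. By the listed values Rn7s2 fell against Rmrp and Rpph1 in 8 of 8 pools, while Rn7s1 passed against neither (exact permutation, adjusted p = 0.0576 and 0.464). With the TPM of overlapping entries summed, the call of Rn7s2 to Rpph1 was lost (log2 change -0.26, adjusted p = 0.171) and that of Rn7s1 to Rmrp was gained (-1.05, adjusted p = 0.0146). With length-weighted loci 22 of 28 ratios were called, those of both loci to Rmrp (log2 change -0.90) and to Rpph1 (-0.35) among them (exact permutation, adjusted p = 0.0146). Both loci have nearly the same length-weighted value, so this count holds each 7SL ratio to another member once per locus. The call for Rn7s1 to Rn7s2 by the listed values (log2 change 0.36) was lost with the length-weighted values. All ratios to Terc changed in 8 of 8 pools, with Terc close to the lower limit of the files.

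**Figure D4:**
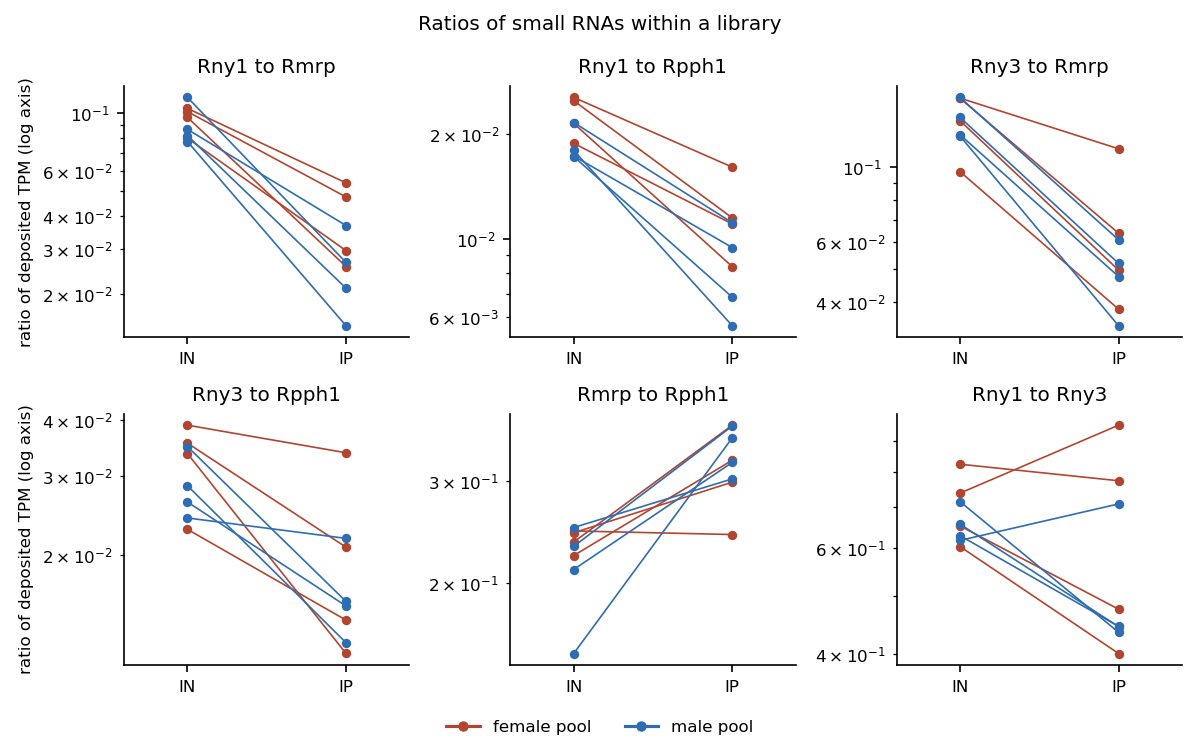
Ratios of deposited TPM between members of the same library (log axis) in IN and IP, with 1 line for each of 8 pools. Ratios of Rny1 and Rny3 to Rmrp and Rpph1 fall in all 8 pools, the ratio of Rmrp to Rpph1 rises in 7 of 8, and that of Rny1 to Rny3 moves in either direction.

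The IP libraries differed among themselves more than the IN libraries did. Over 8 libraries the coefficient of variation of scaled TPM was 8.27% to 17.0% in IN for Rn7sk, Rny1, Rny3, Rmrp and Rpph1, and 58.1% to 115% in IP. The members moved together more in IP than in IN. Pearson correlations of log2 scaled TPM were taken over 8 libraries between pairs of the 7 tested members. Their median was 0.857 in IP (0.618 to 0.972) and 0.537 in IN (0.216 to 1.0), where points share a library and its scaling. The value of 1.0 in IN was that of Rn7s1 with Rn7s2, which share their sequence. The change from IN to IP was nearest to 0 in female pool 2 for all 7, from -2.14 for Rmrp to -3.07 for Rny1. In male pool 4 it was between -4.56 (Rmrp) and -6.37 (Rn7sk).

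Markers of other cells also differed among the IP libraries, and their relation to the members was not tested. In IP the summed scaled TPM of 8 satellite glia markers ran from 138 to 296, of 8 Schwann cell markers from 389 to 1000, of 7 macrophage markers from 4.10 to 13.4, of 5 endothelial markers from 1.92 to 7.77 and of 4 haemoglobin genes from 54.7 to 179. Female pool 2 was the highest IP library for each of these lists, and the lowest, at 2567, for the 10 nociceptor markers (up to 3653). In IN the same sums were 976 to 1330, 2335 to 3483, 43.6 to 63.4, 24.6 to 31.2 and 493 to 964, and 969 to 1174 for the nociceptor markers. Fibroblast markers (5, summed scaled TPM 782 to 1085 in IN and 81.6 to 250 in IP) and large-diameter neuron markers (6, 413 to 517 in IN and 147 to 264 in IP) were not highest in IP of female pool 2. No marker of these lists was at 0 in all IP libraries. All tested markers of the lists were lower in IP except the nociceptor markers, which were higher (10 of 10). Their part in the fall of the small RNAs was not tested. Mitochondrially encoded RNA took 8.94% to 16.7% of the TPM total in IN and 0.238% to 5.04% in IP, again with female pool 2 highest, and its part was not tested either.

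Within each sex all 7 tested members were lower in IP. In the female pools, where 33.5% of 16115 genes were called lower, the log2 changes ran from -3.22 ± 0.33 (Rmrp, SE, limma adjusted p = 0.000644) to -4.45 ± 0.41 (Rny1, adjusted p = 0.000511). In the male pools, where 35% of 16061 genes were called lower, they ran from -3.69 ± 0.24 (Rmrp, limma adjusted p = 4.31e-05) to -5.41 ± 0.11 (Rny1, adjusted p = 1.82e-05). Quantile normalization left 3 of 7 calls in the female pools (Rny1, Rny3 and Rmrp) and 4 of 7 in the male pools, with Rn7sk, Rn7s1 and Rn7s2 lost in both sexes. With no filter on low values, 4 members were called in the female pools (Rny1, Rny3, Rmrp and Terc, which is tested only then). Without female pool 1 the female calls were 5, with adjusted p of 0.0840 for Rn7s1 and 0.0824 for Rn7s2, and without female pool 3 they were 6, with 0.0531 for Rn7s1. With the 2 female pools whose short 7SL entries were above 10 TPM in both fractions they were 3 (Rny1, Rny3 and Rmrp).

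The sexes were then compared within a fraction, the comparison the series is named for. In IN none of the 7 tested members was called between female and male pools by limma, against 0.0824% of 13345 genes, and none had an unadjusted p under 0.05. The log2 differences, female minus male, ran from -0.18 ± 0.54 (Rn7s2) to 0.21 ± 0.14 (Rny1, adjusted p = 0.959). In IP none was called, against 0.038% of 15776 genes, and again none had an unadjusted p under 0.05. All 7 estimates were above 0 there, from 0.58 ± 0.45 (Rmrp) to 1.20 ± 0.58 (Rny1, adjusted p = 0.999744). Rny1 in IP was 22.2 ± 19.2 in females and 7.09 ± 2.75 in males (scaled TPM, SD, n = 4 each). The interaction of sex and fraction called none of the 7, against 0.0186% of 16099 genes, with estimates of 0.46 ± 0.44 (Rmrp) to 1.15 ± 0.76 (Rn7s2). The standard errors in IP, 0.45 to 0.80, leave differences of the size of these estimates undetectable with 4 pools per sex.

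Proteins that partner these RNAs were given by lists of genes. Their mRNAs showed changes of at most 1.08 on the log2 scale in either direction, whereas the members changed by 3.45 or more in the downward one. Over all genes tested, 40.5% were called higher in IP and 38.9% lower. Of 10 tested SRP and SRP receptor entries, 7 rose in IP and none fell. Srp19 changed by 0.997 ± 0.15 (SE, limma adjusted p = 0.000138) and Srp14, which with Srp9 binds the Alu part of 7SL, by 0.76 ± 0.05, while Srpr (-0.11 ± 0.06) and Srp72 (0.01 ± 0.09) did not pass. Of 7 genes of the 7SK particle and P-TEFb, 3 rose and 3 fell. The P-TEFb inhibitor Hexim1 (0.47 ± 0.06) and the kinase Cdk9 (0.38 ± 0.04) were higher, the cyclins Ccnt2 (-0.96 ± 0.08) and Ccnt1 (-0.54 ± 0.07) lower.

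Of 3 tested Y RNA partners, Puf60 (0.46 ± 0.05) and the La gene Ssb (0.44 ± 0.07) rose. Trove2, which codes for Ro60, fell by 0.98 on the log2 scale, from a scaled TPM of 14.5 ± 0.92 in IN to 6.84 ± 0.73 in IP (SD, n = 8; limma adjusted p = 1.82e-07). Of 11 RNase P and MRP protein genes 9 rose, Rpp14 (1.08 ± 0.15) and Pop5 (0.82 ± 0.26) the most, and 1 fell, Pop1 (-0.22 ± 0.06). Of 6 tested telomerase and H/ACA protein genes 2 rose, Nhp2 (0.82 ± 0.05) and Nop10 (0.70 ± 0.05), and 2 fell, Naf1 (-0.27 ± 0.05) and Wrap53 (-0.13 ± 0.05). Of 25 genes for RNA polymerase III transcription 11 rose and 8 fell, with Snapc5 (0.59 ± 0.04) and Polr3g (0.47 ± 0.04) at the upper end and Bdp1 (-0.91 ± 0.08) and Polr3f (-0.67 ± 0.05) at the lower. The list medians were between -0.04 and 0.44, against 0.02 for all genes.

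Among other small structural RNAs, 22 entries were tested, 11 were lower in IP and none was higher, with a median log2 change of -1.45. Over all genes tested, 38.9% were called lower. The entries are not all separate RNAs. Rnu1b1, Rnu1b2 and Rnu1b6 had nearly the same values (log2 change -2.24 each), and Rnu3a, Rnu3b1 and Rnu3b3 are each listed more than once. Rnu2-10, a U2 spliceosomal RNA, changed by -4.26 ± 0.35 and Rnu12 by -3.27 ± 0.21 (SE, limma, adjusted p = 1.37e-06 and 2.71e-07). Scarna10 (0.56 ± 1.25) and Scarna2 (0.23 ± 0.17), guide RNAs of Cajal bodies, did not pass. All 36 tested mitochondrially encoded RNAs were lower, with a median of -3.83. The difference between the members and these lists was not tested.

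**Figure D5:**
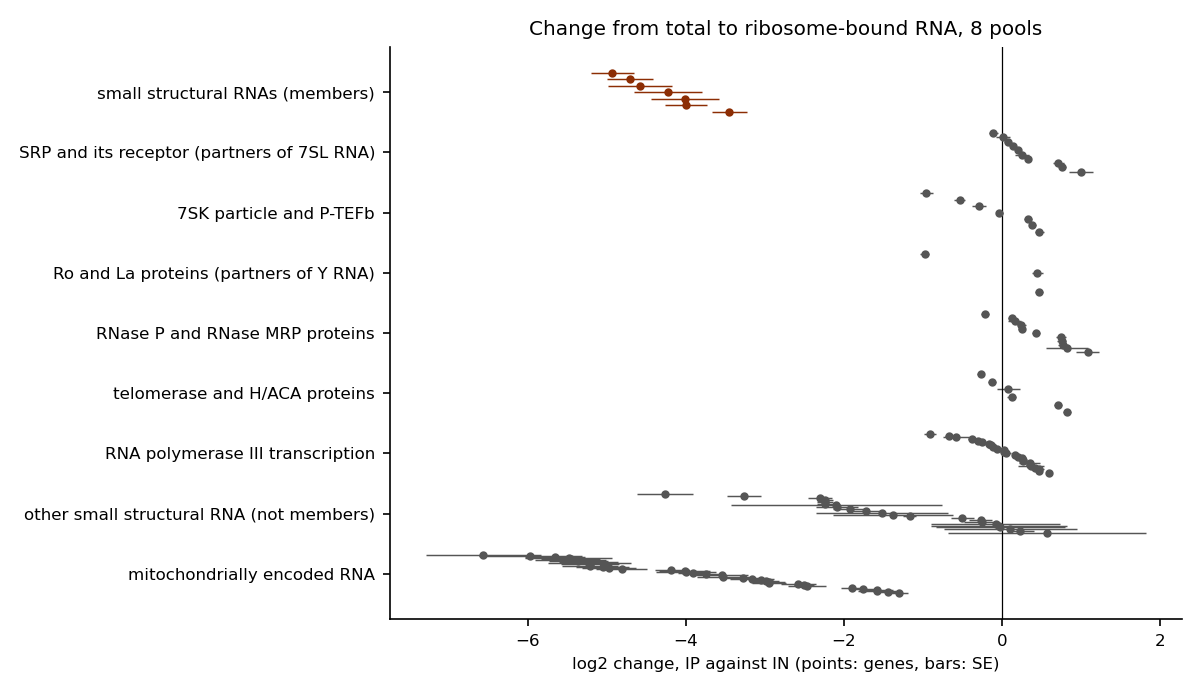
Log2 change from IN to IP (points, bars: SE of the limma fit on 8 pools) of the 7 tested members, of genes for their protein partners, of other small structural RNAs and of mitochondrially encoded RNAs. The members lie between -4.93 and -3.45 in this scaling, and the genes for partner proteins lie within 1.08 of 0. Quantile normalization, which sets values by rank, puts Rn7s1 at 0.22.

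For each tested member the genes with the most similar pattern were found by Pearson correlation over 16 libraries after the mean of each fraction was subtracted, leaving out members and entries that overlap them. Rn7sk was nearest to the nuclear long noncoding RNAs Firre (r = 0.971) and Meg3 (r = 0.966). Rpph1 was nearest to the mitochondrial ribosomal RNAs mt-Rnr1 and mt-Rnr2 (each r = 0.976) and to Rn7s6 (r = 0.971), and Rmrp to mt-Atp8 (r = 0.960) and mt-Cytb (r = 0.956). Rny3 was nearest to Rnu2-10 (r = 0.964), Rny1 to Miip (r = 0.954), Rn7s2 to Pcdhgb5 (r = 0.905) and Rn7s1 to Baz1b (r = 0.878). Nuclear protein-coding genes were also among the 3 nearest of Rn7sk, Rny3 and Rmrp, with correlations only slightly lower than those named. These genes share the libraries and their scaling with the members, and the list of tested genes is long.

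Apart from the short entries inside the 7SL genes, the entries that overlap members were low. Ccdc107, on the strand opposite Rmrp and overlapping it by 159 bases, had a scaled TPM of 8.68 to 12.5 in IN and 16.4 to 19.5 in IP, a log2 change of 0.68 ± 0.07 (SE, limma adjusted p = 5.13e-06), opposite in direction to Rmrp. AL732506.1, which covers Rmrp on the same strand, was above 0 in 1 of 16 libraries, and Ccnb1ip1, which overlaps Rpph1, was listed at 0 in all 16. Copies elsewhere in M21 with at least 80% identity over at least 80% of the length numbered 12 for Rny1, the highest of them at a median deposited TPM of 1.48 in IN, and none for Rny3. Rn7s1 and Rn7s2 aside, no such copy of any member had a higher IN median than that. Rn7s6, which is not among these copies, was high, with a mean scaled TPM of 40720 in IN and 2316 in IP. Neither the strand setting nor the treatment of reads with several matches is given, so the values of 7SL, Rny1 and Rmrp carry that uncertainty.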

How the data were processed

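Ribosomal RNA-depleted libraries of dorsal root ganglion RNA were made from total RNA (IN) and from anti-GFP pulldowns (IP) of the same 8 pools, per the labels. Per the submitters' processing notes, reads were checked with FastQC, aligned with STAR 2.2.1 and quantified with StringTie 1.3.5 on GRCm38.p5. No source used here names the annotation release, strand setting or treatment of reads with several matches. The authors deposited 1 table of TPM per library, whose column is headed coverage but sums to 1000000. Read depth is therefore unknown, and no counting interval is given. In each library 17 to 21 further entries of a repeated gene ID were summed, and 92 ERCC spike-in entries were left out of tests. No 2 libraries held identical values.

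Deposited TPM was scaled by the median of ratios over tested genes and tested as log2(value + 1) in limma 3.58.1 with trend (R 4.3.3), two-sided, after a filter of a mean TPM of at least 1 in IN or IP. Fraction comparisons had the pool as a block, and the sex comparisons had none. Fold changes on this scale understate changes of low genes. Ratios within a library used an exact sign-flip permutation test over pools (scipy 1.17.1). The limma and ratio scripts were tested on simulated data. Sequences are from GENCODE M21. Length weighting sums TPM times length over a locus's entries.

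Fractions of a pool come from the same animals, which pairs them. Within a pool, deviations of both libraries from their group means correlated at 0.0066 to 0.41. Members are all described. Overlapping entries, the most alike genes per tested member (from the 3 highest correlations) and up to 4 genes per partner list were named by rule. One sequence and one of the most alike genes are not reported here. The members and lists were chosen with earlier results of these data known. Alternatives were 3 scalings, a pseudocount of 0.1, no filter, first entry per gene ID, the block, and leaving out each pool, plus length-weighted 7SL loci and a subset of pools, both chosen after seeing the data.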

Additional observations from a re-analysis of the deposited data

Results flagged for a closer look

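Dixon's gap test was run on the 4 pools of each group for 8 members, 32 groups in all, and 6 of them had a library beyond the 95% critical value, where chance gives about 1 in 20 groups. Of these, 4 were 7SL genes in IN, where Rn7s1 and Rn7s2 share their sequence and had nearly the same values. The groups are therefore not independent, and 6 of 32 cannot be read against that rate. Rn7s1 had a scaled TPM of 177380 in IN of female pool 4 (the other female pools 54139 to 71282) and 237620 in IN of male pool 2 (others 58272 to 74701). Rn7s2 had 177615 and 237779 in the same libraries (others 53245 to 70026 and 57633 to 73429). These are the IN libraries in which the short 3′ entries of both loci were near 0. Rny3 had 101 in IP of female pool 2 (others 12.8 to 26.6). Rny1 had 11.2 in IP of male pool 2 (others 5.52 to 6.07).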

How the results depend on the processing

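The calls of the 7 tested members lower in IP over all pools held with deposited TPM, with scaling to the total of the other genes, with a pseudocount of 0.1, with the first entry of a gene ID, without the replicate block, with length-weighted 7SL loci, with the 4 pools whose short 7SL entries were above 10 TPM, and without each pool in turn. Scaling moved the median log2 change of all genes from 0.02 to 1.84 (none), 0.57 (total of other genes) and 0.15 (quantile), and the share of calls that were higher in IP from 51.0% to 94.0%, 77.2% and 61.1%. Relative to that median, Rny1 changed by -4.95, -4.57, -4.98 and -5.02 in these scalings and Rn7sk by -4.03, -3.56, -3.96 and -0.45. Quantile normalization, which gives each rank the same value in every library, left 4 members called over all pools, 3 in female and 4 in male pools. It reversed Rn7s1 to 0.22 over all pools, 0.36 in female and 0.050 in male pools, and Rn7sk to 0.093 in female pools. With no low-value filter 21311 genes were called over all pools and 17556 in male pools, and 4 members, Terc included, were called in female pools. With the added subset of pools 3993 genes and 3 members were called in female pools, 19 genes between sexes in IN, and Rmrp there turned to -0.092.

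Without the replicate block 12463 genes were called over all pools, 10546 in female and 10764 in male pools, and 3 for the interaction, and no call of a tested member changed. Pools of the same number in the sexes share only a number: no female library correlated best with its own number (0 of 4 in IN and 0 of 4 in IP). A replicate block on that number gave 6 calls in IN and 5 in IP, and none of a member. Between sexes in IN, 7 genes were called with no scaling, and 7 to 12 without single pools. Rpph1 there turned to 0.056 with no scaling, to 0.00487 with the total of other genes and ran from -0.18 to 0.064 without single pools. Likewise Rn7s1 ran from -0.57 to 0.29 and Rn7s2 from -0.58 to 0.29, the values above 0 all without male pool 2. In IP 5 to 12 genes were called without single pools, the 12 without female pool 4. The interaction gave 11 calls with no scaling, 0 with the total of other genes, 1 with quantile normalization, 0 with no filter, and 0 to 6 without single pools, where Rn7sk ran from -0.046 (without male pool 4) to 1.16.

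Shares with overlapping entries were 63.6% in IN and 17.7% in IP. The ratio of Rn7s1 to Rn7s2 turned to a log2 change of -0.18 with overlapping entries summed and to -2.4e-05 length weighted. Rn7sk to Rn7s1 turned to -0.19 without male pool 2, and Rn7sk to Rpph1 ran from -0.24 to 0.21 without single pools. Depth is unknown, which limits what can be said of Terc and of Rny1 and Rny3 in IP.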
